A study of Mus musculus with 6 samples.

Results

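Long noncoding RNAs that stay in the nucleus or act on transcription and RNA processing were followed in GL261, a mouse glioma cell line, 4 h after sodium propionate was added. The 9 genes were Malat1, Neat1, Kcnq1ot1, Meg3, Pvt1, Lncpint, Mir17hg, Miat and Tug1, taken by name from 58210 genes in the deposited quantifications. The names were selected on summed gene levels, their spread and their differences in these same libraries, so those values are a description here and serve as no test. Of the 9, 7 averaged 1 TPM or more (TPM is a level corrected for transcript length and sequencing depth) and entered the comparison of 15506 genes. Kcnq1ot1, at 1.99 TPM, was the lowest of the 7 inside that filter, and Miat, at 0.242 TPM, and Meg3, listed at 0, lay outside it.

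The study had 2 groups of 3 libraries each. Cells labelled sodium chloride, numbered 1, 2 and 3, and cells labelled sodium propionate, numbered 1, 4 and 5, had each received their salt at 1 uM for 4 h per the labels. Millimolar doses of propionate are usual in culture, and nothing in the files shows whether the unit is right. Gut bacteria make propionate, a fatty acid of short chain, and the chloride salt brings the same cation. The labels name no other treatment or genetic change, and GL261 is a single established line. Whether each library had its own culture is not said, so every p-value measures the spread between these libraries, which may be technical. Values below are listed in the order of these library numbers.

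Long noncoding RNAs of this kind work as RNA rather than as templates for protein. Some build nuclear bodies: Malat1 is concentrated in nuclear speckles, which store splicing factors, and Neat1 is the scaffold of paraspeckles. Others act at or near their own gene, as the imprinted Kcnq1ot1 and Meg3 and the Myc neighbour Pvt1 do, or are cut into microRNAs, as Mir17hg is. Many have short half-lives or are spliced slowly, and total RNA libraries, unlike polyadenylated ones, also hold their unfinished copies.

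Between 9.15 and 11.3 gigabases were counted per library. Chloride 3 and propionate 1 had fewer transcript models with any coverage (71452 and 71192) than the other 4 (81178 to 82370). Of 10 progenitor and glioma markers, Vim, Nes, Cspg4, Cd44 and Sox2 stood at about 48.0 TPM or more in every library and Pdgfra at 5.41 to 6.30 TPM. Olig1, Olig2 and Fabp7 lay between 0.887 and 1.96 TPM, and Gfap, an astrocyte marker, lay between 0.547 and 1.31 TPM. Summed levels of 5 lymphoid, 4 endothelial and 5 neuronal markers reached at most 0.251, 0.301 and 0.219 TPM, with overlapping groups. Among 8 microglia and macrophage markers, Cd68 (3.22 to 4.69 TPM) and Csf1r (1.19 to 2.05 TPM) held most of a sum of 4.72 to 6.39 TPM, while P2ry12 and Itgam were listed at 0 in all 6. Among mature oligodendrocyte markers, Mbp stood at 186 to 244 TPM, and Mog lay between 0.955 and 1.501 TPM. Of 5 fibroblast and pericyte markers, Col1a1 stood at 75.2 to 98.6 TPM and Dcn, Lum and Rgs5 at or under 0.0917 TPM. Pdgfrb had 1.05 to 1.18 TPM with chloride and 1.18 to 1.97 TPM with propionate, without overlap, and its part in the results was not tested. The 4 erythroid markers summed to at most 1.77 TPM. In bulk RNA, fewer cells with an RNA and less of it per cell cannot be told apart.

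Levels spanned more than 3 orders of magnitude among the 8 detected genes. Malat1 had a mean of 477 TPM over the 6 libraries and Tug1 83.7 TPM. Neat1 (20.8 TPM), Pvt1 (17.6), Lncpint (16.98) and Mir17hg (15.3) followed as neighbours whose library values interleaved. Kcnq1ot1, a single transcript of 93092 nt, and Miat closed the order. Spread over the 6 libraries differed as much as level: the SD of log2(TPM + 1) was 0.07 for Tug1 and 0.18 for Pvt1, but 0.32 for Mir17hg, 0.30 for Malat1 and 0.28 for Neat1. Only 12.5%, 13.99% and 15.9% of all tested genes had a larger SD than those last 3, and 88.6% had a larger one than Tug1. These shares compare genes of any level, and an SD over 6 libraries includes the difference between the groups.

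**Figure D1:**
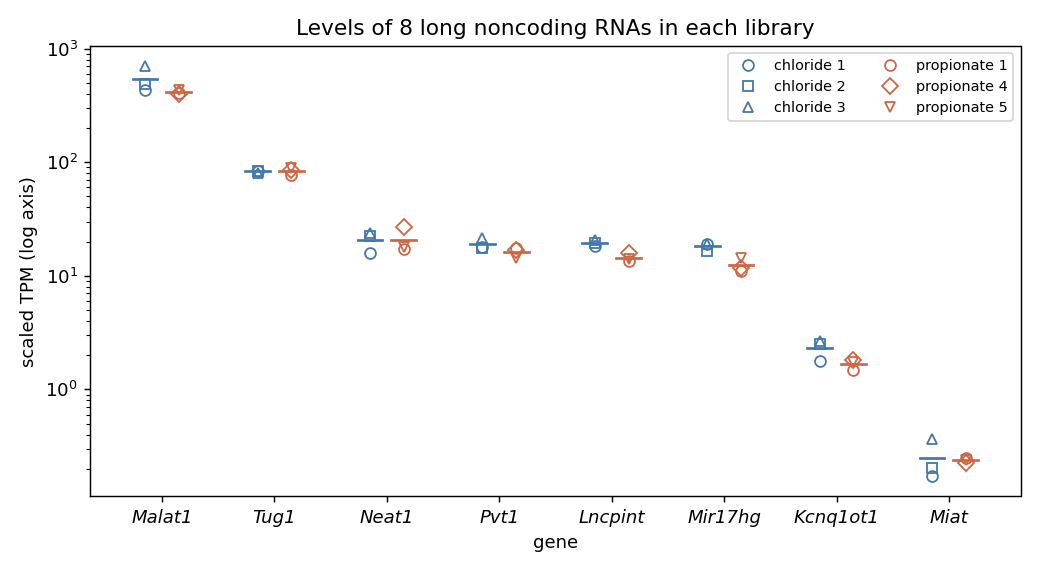
Scaled TPM (log axis) of 8 genes in each of 6 libraries, with chloride in blue, propionate in orange, a marker shape per library and a bar at each group mean; Meg3, listed at 0, is not drawn. The propionate points of Lncpint and Mir17hg lie below all chloride points, those of Tug1 and Neat1 interleave with them, and chloride 3 is the highest Malat1 library at 699 TPM.

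With propionate, 6 of the 7 tested genes had lower levels, Neat1 by only 0.01 on the log2 scale, and none passed the threshold of limma's test with Benjamini-Hochberg adjustment over all 15506 genes (adjusted p = 0.915 for Malat1, Kcnq1ot1, Pvt1, Lncpint and Mir17hg, 0.996 for Neat1 and 0.986 for Tug1). That threshold was passed by 1 gene in all, or 0.00645% of those tested, and 48.3% of all genes had lower means with propionate. The groups did not overlap for 2 of the 7, Lncpint and Mir17hg, both lower with propionate; 6.47% of all tested genes separated in that direction and 5.25% in the other. A second measure is the bases counted over a whole locus per megabase (Mb) counted in the library. It does not depend on how reads are divided between overlapping models, and it has no median-ratio scaling. By it, 5 of the 7 loci (Malat1, Kcnq1ot1, Pvt1, Lncpint and Mir17hg) lay below every chloride library in every propionate library, against 9.59% of 14821 loci. The median locus differed by -0.03 between the groups on the log2 scale of this measure, which was not rescaled. The measures thus differ in scaling as well as in the division of reads. Kcnq1ot1 has 1 model, and its groups overlapped by scaled TPM but not by bases. With TPM as deposited, Malat1 differed by -0.45, against -0.36 when scaled. The sign of Neat1 turned in 5 of 21 alternative settings and that of Tug1, the gene with a higher level by scaled TPM, in 8 of 21. Without the median-ratio scaling, differences shift by about a further -0.10 on the log2 scale for genes of high level and by less for low ones (Kcnq1ot1 moved from -0.30 to -0.37), so counts of lower and higher genes hold for the scaled values. Both measures come from the contrast used to choose the genes, so these shares are printed for scale and nothing is read from them.

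**Figure D2:**
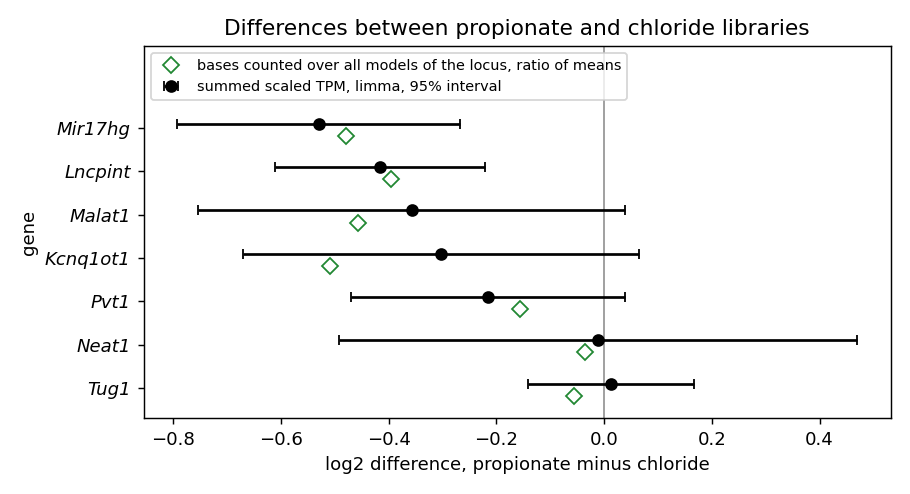
Log2 difference, propionate minus chloride, of the 7 tested genes: black points are limma estimates from summed TPM with 95% intervals (n = 3 a group), and green diamonds are log2 ratios of group means of bases counted per locus. Mir17hg (-0.53) and Lncpint (-0.42) have intervals below 0, and the intervals of the other 5 include 0. The diamonds, which have no median-ratio scaling and no pseudocount, lie left of the points for Malat1, Kcnq1ot1, Neat1 and Tug1. Those of Pvt1, Lncpint and Mir17hg lie right of them.

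Malat1 (ENSMUSG00000092341, minus strand, chr19:5795690-5802672, mm10, 1 long exon of 6983 nt in its main transcript) showed the highest level. It stood at 429, 492 and 699 TPM with chloride and at 409, 398 and 431 TPM with propionate. Chloride 3 was far above the rest and propionate 5 was above chloride 1, so the groups overlapped. Group means were 540.3 ± 141 and 413 ± 16.9 TPM (SD, n = 3), a log2 difference of -0.36 (SE 0.17, 95% interval -0.75 to 0.04). Without chloride 3 the difference was -0.16. Bases counted at the locus came to 1663, 1725 and 2387 per Mb with chloride and to 1378, 1422 and 1410.4 with propionate. By that measure all 3 propionate libraries were lower and close to each other.

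Which Malat1 model received the reads changed from library to library far more than the gene did. The annotated transcript ENSMUST00000172812 held 3.36% of the gene's TPM in chloride 1, 73.7% in chloride 2 and 99.6% in chloride 3, and 86.1%, 66.2% and 100% in propionate 1, 4 and 5. MSTRG.10855.3, an assembled model of 3 exons, took 16.6%, 0.123% and 0.151% with chloride and 0% in each propionate library. An assembled model of 2 exons (MSTRG.10855.1, 8385 nt) took 80.1%, 26.2% and 0.278% with chloride and 13.9%, 33.8% and 0% with propionate. Both treatments had a library at or under 0.278% and another at 33.8% or more for MSTRG.10855.1. The model differs from the annotated transcript by running 1442 bases past its end and by leaving out 40 bases, chr19:5796029-5796068, that begin with GT and end with AG on the RNA's strand. The stretch around that gap is shown because it is where the models part and because it holds U-rich and A-rich stretches of the element that protects the Malat1 3′ end, with the omitted 40 bases in capitals (chr19:5795982-5796088, minus strand, 5′ to 3′, from the GENCODE M21 transcript).
Malat1: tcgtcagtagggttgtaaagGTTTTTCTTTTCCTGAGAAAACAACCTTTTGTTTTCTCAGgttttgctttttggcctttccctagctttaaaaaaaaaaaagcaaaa

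As background, Malat1 is not polyadenylated in the usual way. Its end is made by RNase P, which cuts before a tRNA-like RNA, and it is protected by a helix in which U-rich motifs pair with an A-rich tract. Of the 40 omitted bases 19 are T, and a run of 12 A follows 29 bases after them. In the annotated transcript, searched on both strands for runs of at least 8 A, this was the 1 run on its own strand, and 3 runs lay on the other. Of 132990 tiles of 80 bases from all lincRNA transcripts, 2.14% held such a run on either strand. The stretch shown stops 292 bases before the annotated end. Whether the 40-base gap is a splice in RNA of these cells or a product of alignment was not tested.

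Neat1 (ENSMUSG00000092274, minus strand, chr19:5824708-5845478) lies next to Malat1 and gives a short form and a long form that only partly share their function: the long one is needed to build paraspeckles. Its level was 16.0, 22.3 and 24.0 TPM with chloride and 17.3, 27.0 and 17.9 TPM with propionate. The highest library was propionate 4 and the lowest chloride 1, with full overlap. The log2 difference was -0.01 (SE 0.20, 95% interval -0.49 to 0.47). Nearly all of the TPM (99.4% on average) was given to the long unspliced transcript ENSMUST00000173672 of 20771 nt, and the short model ENSMUST00000174287 was listed at 0 in 4 libraries and at 0.0853 and 0.282 TPM in chloride 1 and 3. A short form ends inside the first part of the long one, so reads there fit both models, and how they were divided was set by the quantifier.

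The RNAs of genes for paraspeckle and speckle proteins were described from fixed lists. Of 19 tested genes for paraspeckle proteins, 12 had lower and 7 higher means with propionate, none was called, and the median log2 difference was -0.08. Sfpq, an RNA-binding core protein of paraspeckles, had 71.8 to 78.2 TPM with chloride and 63.7 to 66.4 TPM with propionate, without overlap (-0.20, SE 0.06). Taf15 (-0.28, SE 0.07) and Hnrnph3 (-0.30, SE 0.10), 2 more RNA-binding proteins of the list, were the others with an unadjusted p under 0.05. Of 19 genes for nuclear speckle proteins 12 were lower and 7 higher, none was called, and the median was -0.04. The splicing factors Srsf11 (46.1 to 50.5 TPM with chloride, 36.3 to 41.3 with propionate), Luc7l3 and Srrm1 had unadjusted p under 0.05, at -0.30, -0.21 and -0.38. Over all genes, 48.3% were lower by sign, and 2.97% had an unadjusted p under 0.05 with lower means and 2.16% with higher ones. The neighbours Frmd8, Ltbp3 and Slc25a45 had overlapping groups and differences from -0.16 to 0.05.

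Kcnq1ot1 (ENSMUSG00000101609, antisense class, minus strand, chr7:143203458-143296549) starts inside an intron of Kcnq1 and is made from the paternal allele, where it silences imprinted neighbours. Its TPM was low for its great length: 1.79, 2.49 and 2.66 with chloride and 1.47, 1.81 and 1.73 with propionate. Propionate 4 was just above chloride 1, and the log2 difference was -0.30 (SE 0.16, 95% interval -0.67 to 0.06). At 93092 nt this low TPM still rested on many bases: 81.8, 111 and 121 per Mb with chloride and 64.4, 80.6 and 75.5 per Mb with propionate. By bases no propionate library reached a chloride one, though propionate 4 and chloride 1 differed by little.

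Genes around Kcnq1ot1 were low or had differences near their standard errors. Kcnq1, a potassium channel gene transcribed the opposite way, was between 0.0419 and 0.155 TPM in every library and shares 121 exon bases with Kcnq1ot1. The cell cycle inhibitor Cdkn1c was between 0.185 and 0.595 TPM, and neither was tested. Phlda2, a growth-restraining placental gene, stood at 16.5 to 20.98 TPM with chloride and 16.2 to 18.7 TPM with propionate (-0.08, SE 0.10). Slc22a18, a transporter of the same domain, had 1.74 to 2.44 and 1.20 to 2.30 TPM. Nap1l4 differed by 0.07 (SE 0.06), and the tetraspanin Cd81, at 41.9 to 42.4 TPM with chloride and 42.7 to 51.1 TPM with propionate, by 0.11 (SE 0.08). Of 11 genes of polycomb repressive complex 2 (PRC2) and its partners, 9 were lower, 2 were higher and none was called. By sign, 48.3% of all tested genes were lower. Ezh1 (-0.17, SE 0.12) and Rbbp7 (0.07, SE 0.07) had the smallest p-values of the 11.

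Meg3 (ENSMUSG00000021268, plus strand, chr12:109541001-109571726), made from the maternal allele and known as a growth-restraining RNA, was listed at 0 in all 6 libraries for all 11 of its models. Other genes of its imprinted domain were low as well. Dlk1 and Dio3, its paternally expressed partners, were also listed at 0, and Rian, Mirg, Rtl1 and Begain stayed at or under 0.442 TPM. A listed 0 can be a failed estimate, and the bases counted, which come from the same estimates, cannot tell that apart from absence. Miat (ENSMUSG00000097767, minus strand, chr5:112213228-112229395), an RNA best known from neurons and the retina, was the other member too low to test. It stood at 0.173, 0.202 and 0.364 TPM with chloride and at 0.248, 0.223 and 0.240 TPM with propionate, with the propionate libraries inside the chloride range.

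Pvt1 (ENSMUSG00000097039, plus strand, chr15:62037986-62378096) lies downstream of Myc, and its promoter and Myc's are known to compete in some cells. The chloride libraries had 18.0, 17.5 and 21.3 TPM, and those with propionate had 17.6, 16.8 and 14.2 TPM. Propionate 1 lay marginally above chloride 2, chloride 3 was highest and propionate 5 lowest. The log2 difference was -0.21 (SE 0.11, 95% interval -0.47 to 0.04), and -0.13 without chloride 3 or without propionate 5. Base counts were closer together, at 24.7, 25.8 and 29.6 per Mb with chloride and 23.7, 24.1 and 24.1 with propionate, a ratio of means of 0.897. Myc, the growth-driving transcription factor, had 45.0, 35.5 and 43.7 TPM with chloride and 49.4, 38.0 and 40.3 TPM with propionate (0.04, SE 0.13).

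The TPM of Pvt1 was divided over 17 models, 7 of them assembled, and no model was dominant: the largest mean share was 15.2%, of MSTRG.7577.7. MSTRG.7577.4 followed with 13.3%, ENSMUST00000180432 with 11.9%, MSTRG.7577.14 with 10.9%, MSTRG.7577.6 with 8.92% and MSTRG.7577.2 with 8.35%. MSTRG.7577.1, ENSMUST00000182075 and ENSMUST00000182956 each held 5.81% to 6.28%. Of its 9 tested models, 8 had overlapping groups. MSTRG.7577.6 was the exception among these, with 1.87, 2.35 and 1.75 TPM in chloride and 1.40, 1.47 and 0.346 TPM in propionate (-0.58, SE 0.31), and a difference of -0.29 without propionate 5. Each of the 9 varied more between libraries than the gene did. Of 16 introns in the assembled Pvt1 models, 11 are in GENCODE M21 and 5 are not.

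Lncpint (ENSMUSG00000044471, minus strand, chr6:31082565-31220488) is a p53-induced RNA that has been linked to polycomb silencing and restrained growth. It stood at 18.4, 19.5 and 20.7 TPM with chloride and at 13.4, 15.8 and 14.1 TPM with propionate. The groups did not overlap and were about equally tight. Means were 19.5 ± 1.14 and 14.4 ± 1.21 TPM (SD, n = 3), 26.2% lower with propionate, for a log2 difference of -0.42 (SE 0.08, 95% interval -0.61 to -0.22). Leaving out any 1 library gave -0.48 to -0.37. At the locus, 64.3, 78.2 and 99.4 bases per Mb were counted with chloride and 58.5, 64.2 and 61.3 with propionate, so propionate 4 came close to chloride 1 by that measure. Part of these bases lay in MSTRG.18002.16, an assembled model of 12387 nt that was not joined to Lncpint. Lncpint's own models had 43.5, 52.1 and 66.2 bases per Mb with chloride and 37.8, 42.9 and 40.4 with propionate.

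No tested Lncpint model separated the groups. Its TPM was divided over 20 models, and all 6 that were tested had overlapping values. The assembled MSTRG.18002.1 of 13064 nt had the largest share, 22.6% on average, and differed by -0.15 (SE 0.16). MSTRG.18002.5 held 14.5%, ENSMUST00000229711 13.8%, ENSMUST00000187876 9.41%, ENSMUST00000230209 7.59% and ENSMUST00000229076 7.56%. MSTRG.18002.6, at 5.37%, was too low to test. ENSMUST00000229711, a 4-exon transcript of 1454 nt, was listed at 4.68 and 4.22 TPM in chloride 1 and 2 and at 0 in chloride 3 and propionate 1. Mkln1, which starts on the opposite strand beside Lncpint and shares 132 exon bases with it, was measured as a whole gene. It had 33.3, 40.1 and 40.1 TPM with chloride and 26.2, 42.7 and 28.0 TPM with propionate (-0.25, SE 0.18). The Mkln1 models that reach into Lncpint were listed at 0 except in propionate 1, at 2.57 TPM. The microRNA hairpin models in the locus, Mir29a and Mir29b-1, were listed at 0.0331 TPM or less, and hairpins of this size are poorly held by such libraries.

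Mir17hg (ENSMUSG00000089726, plus strand, chr14:115042879-115051002 in the deposited models) is the host transcript of the miR-17-92 cluster, a Myc-activated group of growth-promoting microRNAs. Its RNA is cut in the nucleus to release 6 hairpins. Their main mature strands fall into families by the seed, bases 2 to 8, which is shown in capitals because it decides which messages they pair with (RefSeq, GRCm38.p6, 5′ to 3′).
miR-17-5p: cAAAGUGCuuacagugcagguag
miR-20a-5p: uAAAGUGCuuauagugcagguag
miR-18a-5p: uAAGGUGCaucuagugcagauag
miR-19a-3p: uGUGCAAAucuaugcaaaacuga
miR-19b-3p: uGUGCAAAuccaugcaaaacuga
miR-92a-3p: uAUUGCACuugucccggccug

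miR-17-5p and miR-20a-5p share the seed AAAGUGC, miR-19a-3p and miR-19b-3p share GUGCAAA, and miR-18a-5p (AAGGUGC) and miR-92a-3p (AUUGCAC) have seeds of their own. The mature strands were not measured, as the libraries hold long RNA. The host RNA stood at 19.1, 16.7 and 19.1 TPM with chloride and at 11.1, 11.7 and 14.5 TPM with propionate. All 3 propionate libraries were below all 3 chloride libraries, propionate 5 being the nearest. Means were 18.3 ± 1.40 and 12.4 ± 1.80 TPM (SD, n = 3), 32.1% lower with propionate, and the log2 difference of -0.53 (SE 0.11, 95% interval -0.79 to -0.27) was the largest of the 7. Without any 1 library it ran from -0.63 to -0.46.

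The direction of Mir17hg rested on which models were summed. Summed over all models of the locus, hairpin models included, TPM was 24.5, 22.3 and 20.9 with chloride and 37.8, 20.5 and 15.1 with propionate, and the log2 difference was 0.016. The excess lay in propionate 1, where the hairpin models of Mir18 (4.97 TPM), Mir19a (7.88 TPM) and Mir92-1 (13.1 TPM) received reads. In chloride 1, the same models had 0.335, 0.315 and 4.70 TPM. The Mir92-1 model, with the largest value, is not short: it has 1184 nt, against 1933 nt for the host model MSTRG.7223.3 described below. A read given to the Mir18 or Mir19a model, of 149 or 143 nt, raises TPM far more than the same read given to the host. Bases counted over the locus carry no such weight, and came to 43.7, 39.1 and 39.1 per Mb with chloride and 28.0, 28.8 and 30.6 with propionate. By bases the groups were apart, with a ratio of means of 0.717.

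An assembled model with an intron that cuts into the cluster held most of the host's TPM. MSTRG.7223.3, of 2 exons and 1933 nt, had 10.3, 8.18 and 11.4 TPM with chloride and 7.46, 6.53 and 7.64 TPM with propionate (-0.40, SE 0.16), on average 56.8% of the gene. The other 2 tested models, with 19.4% and 21.004% on average, traded places. MSTRG.7223.1 was listed at 0 in chloride 3 and propionate 1 and 4, where MSTRG.7223.2 had 6.89, 3.10 and 4.03 TPM. The only annotated transcript, ENSMUST00000134140, held 2.77% and was listed at 0 in chloride 2 and 3. It averaged 0.250 TPM with chloride and 0.607 TPM with propionate, too low to test. The gene's level and difference thus rested almost wholly on its 3 assembled models. The intron of MSTRG.7223.3, chr14:115043703-115044142 (440 nt), is not in GENCODE M21. Its ends are shown with 20 exon and 20 intron bases each and the first and last intron bases, GT and AG, in capitals (plus strand, chr14:115043683-115043722 and chr14:115044123-115044162, from GENCODE M21 transcripts).
Mir17hg donor side: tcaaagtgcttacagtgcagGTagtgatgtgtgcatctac
Mir17hg acceptor side: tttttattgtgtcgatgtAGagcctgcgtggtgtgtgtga

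The donor falls inside mature miR-17-5p (chr14:115043684-115043706): 19 of its 23 bases are in the exon and 4 in the intron. An RNA of this form would keep 32 of 84 nt of the Mir17 hairpin and all 107 nt of the Mir20a hairpin, and none of Mir18 or Mir19a. It ends at base 115044304, 1 base before the Mir19b-1 hairpin starts, so Mir19b-1 and Mir92-1 lie outside it. How many reads cross the intron cannot be read from coverage and TPM, and whether the form exists in these cells was not tested.

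Genes that act on either side of the cluster were described from fixed lists. Over all tested genes, 48.3% were lower by sign, and 2.97% had an unadjusted p under 0.05 with lower means and 2.16% with higher ones. Of 14 tested microRNA maturation genes 12 were lower with propionate, 2 higher and none called, with a median of -0.07. Dgcr8, which holds the hairpin for the first cut, had 36.1, 37.2 and 41.3 TPM with chloride and 35.1, 33.0 and 33.7 with propionate (-0.17, SE 0.07). The helicase Ddx17 (-0.18, SE 0.06) and the Argonaute gene Ago3 (-0.34, SE 0.12) also had an unadjusted p under 0.05. Of 14 tested known targets of the cluster, 10 were higher, 4 lower and none called, with a median of 0.04. Ccn2, a secreted matrix protein, had 553 to 583 TPM with chloride and 609 to 664 with propionate (0.15, SE 0.06), while Bcl2l11, a promoter of cell death, had 1.78 to 2.18 and 1.10 to 1.42 TPM (-0.36, SE 0.14).

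Tug1 (ENSMUSG00000056579, minus strand, chr11:3639785-3649673), an RNA found in nucleus and cytoplasm and first described from retina, had the smallest spread. It held 84.3, 84.4 and 81.1 TPM with chloride and 77.8, 85.7 and 88.8 TPM with propionate. The propionate libraries lay on both sides of the chloride ones, and the log2 difference was 0.01 (SE 0.07, 95% interval -0.14 to 0.17). Bases counted at the locus averaged 209.9 per Mb with chloride and 201.8 per Mb with propionate, with overlap. Its exons share 483 bases with models of Morc2a on the opposite strand, which had 40.7 to 44.9 TPM in all 6 libraries, and no strand option stands in the quantifier's command line, so reads on the shared bases may belong to either.

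Within Tug1 the models differed in opposite directions. The 3-exon ENSMUST00000153313 had 37.3, 36.5 and 33.3 TPM with chloride and 43.5, 40.9 and 43.5 TPM with propionate (0.25, SE 0.09), on average 47.3% of the gene, with all propionate libraries above; with TPM as deposited the difference was 0.12. The 2-exon ENSMUST00000132077, which keeps the intron chr11:3643180-3644771, had 25.9, 26.5 and 27.7 TPM with chloride and 17.7, 25.6 and 24.4 with propionate (-0.25, SE 0.16), or 29.98% of the gene, with all propionate libraries below; propionate 1 was the lowest, and without it the difference was -0.09. ENSMUST00000226724, which removes that intron and keeps the other, had 1.89, 2.34 and 2.38 against 1.03, 1.23 and 1.56 TPM (-0.50, SE 0.19); it held 2.13% of the gene and was picked out after its values were seen. The single-exon ENSMUST00000193809 (20.6%) had 18.0, 16.996 and 14.1 against 15.5, 18.2 and 19.2 TPM, with overlap. None of these 4 passed the adjusted threshold. Both ends of the 1592-nt intron that the first pair of models differ by are shown with 20 exon and 20 intron bases and its first and last bases in capitals (minus strand, chr11:3644752-3644791 and chr11:3643160-3643199, from GENCODE M21 transcripts).
Tug1 donor side: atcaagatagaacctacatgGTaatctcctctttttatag
Tug1 acceptor side: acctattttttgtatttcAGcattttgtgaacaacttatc

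**Figure D3:**
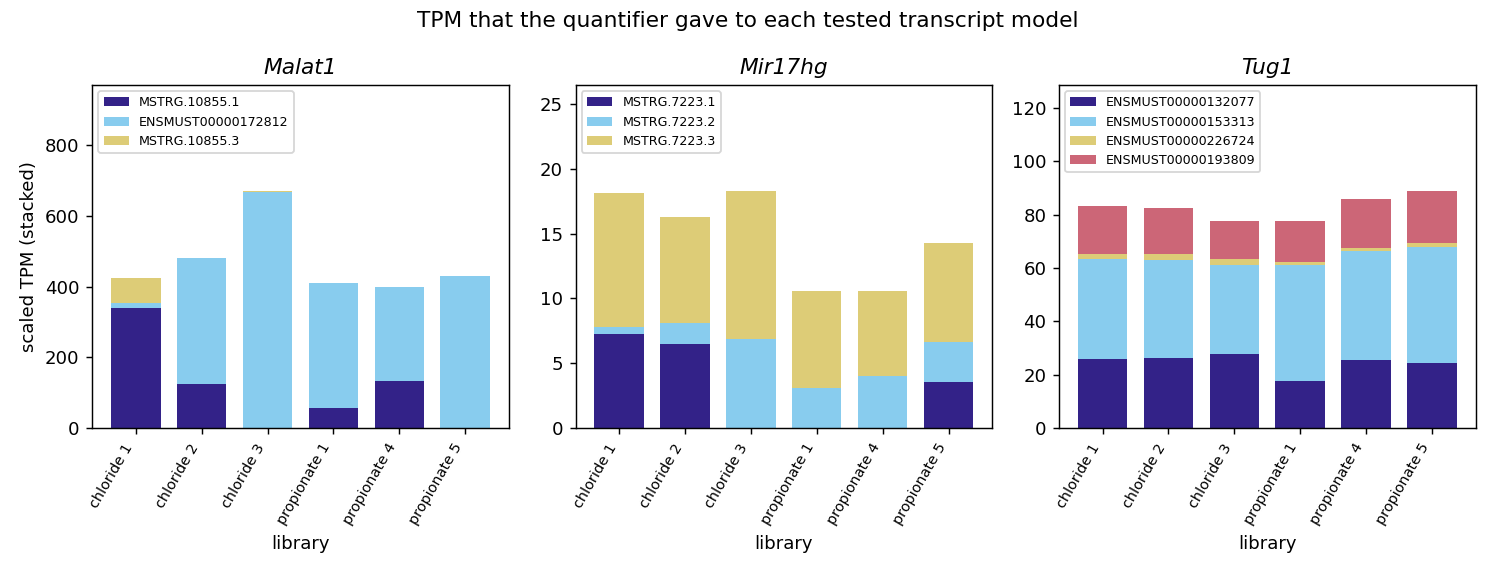
Scaled TPM given to each tested transcript model of Malat1, Mir17hg and Tug1 in 6 libraries, stacked, on a linear axis from 0 that differs between panels. In Malat1 and Mir17hg the colours change from library to library within a group, while in Tug1 the 3-exon ENSMUST00000153313 is taller in all 3 propionate libraries (40.9 to 43.5 TPM) than in the chloride ones (33.3 to 37.3 TPM).

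Over all 7 genes, 27 transcript models were tested and none was called, with 13 of 35755 models (0.0364%) called in the whole table. The groups did not overlap for 5 models lower with propionate, against 6.65% of all tested models, and for 1 higher, against 6% of all. Among the 5 lower models, MSTRG.10855.3 of Malat1 separated through listed values of 0. It had 70.2, 0.591 and 1.01 TPM with chloride and 0 in each propionate library. For 22 of the 27, the spread between libraries was larger than that of their gene's total, and 5 had a listed 0 in some library. A model's value here carries the quantifier's choice between overlapping models as well as the RNA.

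Gene classes and transcripts that may hold unspliced RNA were also lower with propionate. Among those tested, 37 were sense-intronic genes and 234 were genes of the class to be experimentally verified (TEC). Where the TEC genes lie relative to introns, and whether they hold unspliced RNA, was not tested. Of the 271 genes of both classes, 233 were lower with propionate (median -0.20). Relative to protein-coding genes, their median log2 deviation was -0.06, 0.10 and 0.25 with chloride and -0.13, -0.11 and -0.09 with propionate. Transcripts annotated as retaining an intron held 5.70%, 6.33% and 7.33% of the TPM of their 9418 genes with chloride and 5.30%, 5.09% and 5.09% with propionate. Chloride 3 was thus the highest library for both quantities as for Malat1, Kcnq1ot1, Pvt1 and Lncpint, and the 3 lowest libraries for both were those with propionate. That also held for Lncpint and Mir17hg but not for Malat1, Kcnq1ot1 or Pvt1, where 1 propionate library was just above the lowest chloride one. Within chloride, Malat1, Kcnq1ot1, Lncpint and Neat1 had the same order of libraries as both quantities, and Pvt1, Mir17hg and Tug1 did not. Neat1 was highest in propionate 4 and Tug1 in propionate 5. Among 242 lincRNA genes 158 were lower, with a median of -0.07. All propionate libraries were below all chloride ones for 12% of lincRNA genes, 16.9% of antisense genes (the class of Kcnq1ot1 and Tug1), 23.5% of TEC genes and 21.6% of sense-intronic genes. The part of unspliced RNA in the differences of the 7 genes was not tested.

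**Figure D4:**
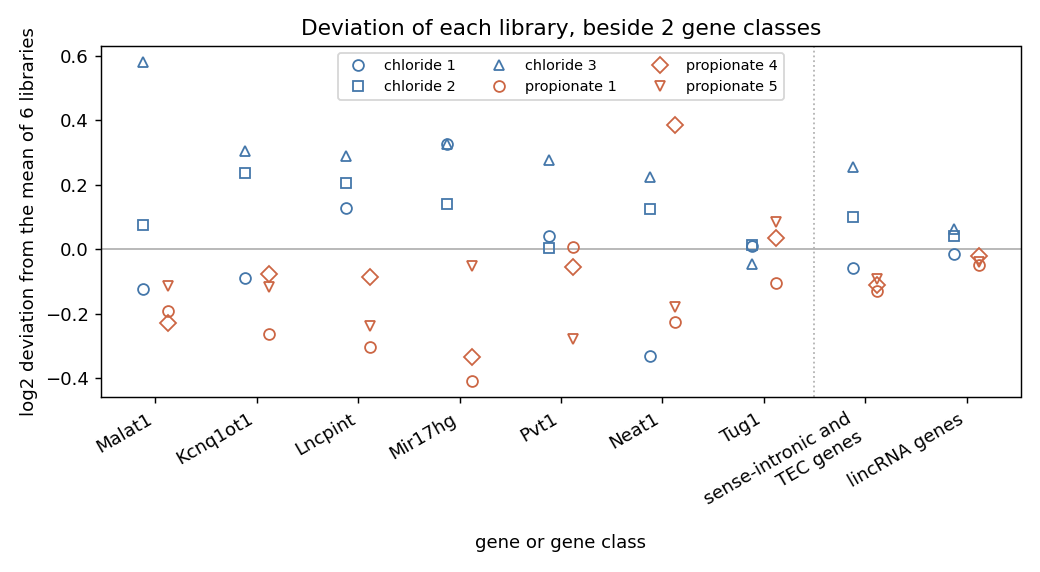
Log2 deviation of each library from the mean of the 6 for the 7 tested genes (left of the dotted line) and, right of it, the median deviation of 271 sense-intronic and TEC genes and of 242 lincRNA genes after subtracting that of protein-coding genes. Chloride 3 is highest for Malat1 (0.58), Kcnq1ot1 (0.31), Lncpint (0.29) and the sense-intronic and TEC genes (0.25).

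Other regulatory long noncoding RNAs, from a list of 50 names, were lower more often than higher. Of 29 tested, 23 had lower and 6 higher means with propionate, none was called, and the median was -0.13. Over all tested genes, 48.3% were lower by sign, and 2.97% had an unadjusted p under 0.05 with lower means. Dancr, an RNA that keeps progenitors undifferentiated, had 12.5, 12.8 and 13.3 TPM with chloride and 9.13, 9.89 and 10.6 TPM with propionate (-0.35, SE 0.08). Firre, a nuclear RNA of the X chromosome, differed by -0.40 (SE 0.13), and Snhg12, Snhg17, Snhg5 and Dleu2 by -0.18 to -0.29. Of 15 tested genes for nuclear RNA decay and m6A, the RNA base mark, 10 were lower and 5 higher, with Zfc3h1, which sends nuclear polyadenylated RNA to decay, at -0.23 (SE 0.08).

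Profiles most like those of 4 members were found by the root mean square difference of centred log2 values over the 6 libraries, among 8945 protein-coding and long noncoding genes averaging 5 TPM or more. Patterns that these genes share with a member follow from that choice and are no result about them. Malat1 was nearest to Ttll5 (0.0499), Alms1 and Safb2, all 3 with chloride 3 far above the rest. Neat1 was nearest to Tbl3 (0.111), Cenpk and its own neighbour Slc25a45. Lncpint was nearest to Naa16 (0.0677), Ptpn6 and Dancr, each with all propionate libraries below all chloride ones. Mir17hg was nearest to Wdfy1 (0.108), Naa16 and Dancr.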

How the data were processed

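The libraries held total RNA of GL261 cells, made with Illumina's TruSeq stranded total RNA Gold kit per the labels, which removes ribosomal RNA. HISAT2, StringTie, bcl2fastq and fastp stand in the submitters' processing notes, as does the mm10 build, but not which did what. The deposited values are per-transcript coverage and other estimates (FPKM and TPM), which the authors made with StringTie 2.1.1 on each library over a fixed set of 157296 models, per the file headers. Its command line has no strand option, and for the strand setting of alignment the sources used here give nothing. The files hold no counts.

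TPM were summed per reference gene name (16 assembled models were joined to the 9 genes by exon overlap) and scaled by the median ratio. Scaling factors ran from 0.990 to 1.09 in the chloride group and from 0.966 to 0.971 in the propionate group. Model values were scaled the same way over models. Tests were two-sided, with limma 3.58.1 (R 4.3.3; lmFit, eBayes with trend) on log2(TPM + 1) and Benjamini-Hochberg adjustment, over genes or models that averaged 1 TPM or more and had at least 200 nt. Such differences understate changes of low genes. Bases counted are coverage times length. GENCODE M21 (GRCm38) gave classes, exons and sequences, and RefSeq the microRNAs.

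The members and lists were chosen with earlier results of these data known. Named beside the members are list genes with an unadjusted p under 0.05, otherwise the 1 or 2 with the smallest p, neighbours, models with at least 5% of a gene, and the 3 most alike profiles. Alternatives were other scalings, pseudocounts, filters, model sums, tests and sets of libraries. Some genes that this rule would name are not reported here.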

Additional observations from a re-analysis of the deposited data

How the results depend on the processing

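No member passed the adjusted threshold under any alternative run, and Kcnq1ot1 and Lncpint kept their direction in all 20 and 21 of theirs (-0.48 to -0.13 and -0.51 to -0.33); a count of calls this low says little about stability. The number of genes called, 1 as reported, was 0 with no filter on low values, 0 with voom on estimated reads, 2 with all models of a locus summed, 2 with library weights, 6 in the 4 libraries other than chloride 3 and propionate 1, and 1 to 4 when single libraries were left out. With voom on the estimated reads of a whole locus, an alternative chosen after seeing the data, it was 0. Transcripts called, 13 as reported, ran from 2 (without propionate 5) to 33 (without propionate 1).

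Reference transcripts alone turned Malat1 to 1.11 and Pvt1 to 0.28, and all models of the locus turned Mir17hg to 0.016. The 4 other libraries turned Neat1 to 0.20. Tug1 turned to -0.083 with TPM as deposited, -0.026 with quantile normalization, -0.0016 where genes had to average 5 TPM, -0.0426 with voom on the gene's estimated reads and -0.0431 with voom on the locus. TPM as deposited also turned the models ENSMUST00000173672 of Neat1 to -0.10 and ENSMUST00000193809 of Tug1 to -0.027. Leaving out single libraries gave Neat1 -0.21 to 0.10 and Tug1 -0.025 to 0.068. Models that turned in such fits ranged as follows. Malat1 ENSMUST00000172812 gave -0.50 to 2.22 and MSTRG.10855.1 -3.38 to 0.84. Neat1 ENSMUST00000173672 gave -0.16 to 0.14. Pvt1 ENSMUST00000180432, MSTRG.7577.4 and MSTRG.7577.7 gave -0.24 to 0.39, -0.33 to 0.25 and -0.34 to 0.12. Lncpint ENSMUST00000187876, ENSMUST00000229076, ENSMUST00000229711 and ENSMUST00000230209 gave -0.034 to 0.20, -0.16 to 0.18, -1.26 to 0.15 and -0.55 to 0.063. Mir17hg MSTRG.7223.2 gave -0.046 to 1.12. The other 15 of 27 models kept their sign. Where leaving out a library left 2 in a group, the cause of a change was not tested. No paired analysis was possible because the groups share only the number 1.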

Other observations

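The deposited models differ from GENCODE M21 mostly on one side; the annotation that the authors gave the quantifier is not named in the sources used here, and 142491 of the models are reference transcripts. Of 141284 reference transcripts found in GENCODE M21, 92450 (65.4%) had the same exons and 48217 (34.1%) differed by a longer end at the higher coordinate alone. The side did not depend on strand: 24449 of 71163 transcripts on the plus strand and 23768 of 70121 on the minus strand were extended there, and 13 transcripts in all were shorter. Among the 61 reference transcripts of the 9 long noncoding RNAs, 35 were extended. For genes on the plus strand this is the 3′ end, so Mir17hg runs to 115051002 in the files, and for genes on the minus strand it is the 5′ end. The Mir92-1 hairpin, 80 nt in the annotation, has a model of 1184 nt, and the Mir17 hairpin of 84 nt one of 180 nt.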
